A study of Mus musculus with 4 samples.

Results

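The Hist1h genes are the large replication histone cluster of the mouse, on chromosome 13. Every gene of the GENCODE M1 annotation (build mm9) whose symbol starts with Hist1h was taken, which gave 56 of 37273 annotated genes. They comprise 6 genes for the linker histone H1 and 15 for H2A, 15 for H2B, 9 for H3 and 11 for H4, the core histones. Of the 56, 55 are annotated as protein coding and 1, Hist1h2aj, as a pseudogene. The rule that picks them uses the symbol alone and no measured value.

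Open chromatin was profiled by ATAC-seq in forelimb and hindlimb cells, pooled, of mouse embryos at stage E11.5. The assay uses the transposase Tn5, which inserts sequencing adaptors where DNA is accessible. Of the 4 libraries, 2 were made from mutants into which a stop cassette had been inserted and 2 from the wild type, all of strain c57bl6.J X 129S6.sv, and the series concerns the long non-coding RNA Maenli and the gene En1. Limb cells of both genotypes were dissociated with trypsin and fixed with PFA before lysis and transposition. The labels give neither the position of the cassette nor the number of embryos behind a library.

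Replication histone genes are transcribed in S phase, when newly made DNA has to be packed into nucleosomes. Histones H3 and H4 form the tetramer at the core of the nucleosome, dimers of H2A and H2B join it, and H1 binds the linker DNA at its entry and exit. The transcripts have few introns and end, in place of a poly(A) tail, in a conserved stem-loop that the protein Slbp binds, and many H2A and H2B genes are arranged head to head around a shared upstream region. Limb bud mesenchyme at mid-gestation contains many dividing cells.

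For each gene and each library, the strongest called summit within 1 kb of an annotated transcript start was taken. A summit is the position of 1 bp that the authors deposited for each peak. Its score is read as −log10 of a q-value and was turned into a percentile within its own list, where 100 is the strongest peak. A gene with no summit in the window was given 0. The stop cassette lists held 79083 and 107827 peaks (replicates 1 and 2) and the wild-type lists 51701 and 68471. Because the lists hold no read counts, the depth behind them is unknown, and the lack of a called peak does not show a closed region. Below, 4 values in a row stand for stop cassette replicate 1, stop cassette replicate 2, wild-type replicate 1 and wild-type replicate 2.

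The regions between head-to-head starts are shown first, because most H2A and H2B results turn on them. All are written 5′ to 3′ on the plus strand of mm9, with the searched motifs in capitals. These are the CCAAT box (printed ATTGG where it lies on the minus strand), the TATA box as TATAAA (or TTTATA), the octamer ATTTGCAT (or ATGCAAAT) and the E2F-type motif TTTCGCGC (or GCGCGAAA). The first is the highest-ranked pair of the cluster and the second the lowest-ranked pair with a summit. They are followed by 2 pairs with no summit in any list, Hist1h2bq with Hist1h2ao and Hist1h2ap with Hist1h2br, and the last holds the 250 bases before the start of Hist1h2aa, a testis histone whose pair also had none.
Hist1h2ah and Hist1h2bk, chr13:22127513-22127689: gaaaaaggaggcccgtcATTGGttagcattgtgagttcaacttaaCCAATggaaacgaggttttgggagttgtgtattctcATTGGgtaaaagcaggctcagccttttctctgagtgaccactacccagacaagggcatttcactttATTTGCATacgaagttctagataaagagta
Hist1h2bf and Hist1h2ad, chr13:23666066-23666249: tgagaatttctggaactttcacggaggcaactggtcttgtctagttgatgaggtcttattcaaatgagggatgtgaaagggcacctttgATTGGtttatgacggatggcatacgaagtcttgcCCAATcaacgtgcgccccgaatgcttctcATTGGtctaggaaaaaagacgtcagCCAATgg
Hist1h2bq and Hist1h2ao, chr13:21902069-21902235: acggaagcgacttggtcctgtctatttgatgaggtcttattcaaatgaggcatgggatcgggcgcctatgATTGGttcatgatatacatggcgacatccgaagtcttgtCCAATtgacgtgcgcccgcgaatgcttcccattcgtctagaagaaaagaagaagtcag
Hist1h2ap and Hist1h2br, chr13:21925445-21925611: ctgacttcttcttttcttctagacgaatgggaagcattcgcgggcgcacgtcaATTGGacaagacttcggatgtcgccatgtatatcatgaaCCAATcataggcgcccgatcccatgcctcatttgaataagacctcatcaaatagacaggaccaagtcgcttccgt
Hist1h2ba and Hist1h2aa, chr13:24026081-24026330: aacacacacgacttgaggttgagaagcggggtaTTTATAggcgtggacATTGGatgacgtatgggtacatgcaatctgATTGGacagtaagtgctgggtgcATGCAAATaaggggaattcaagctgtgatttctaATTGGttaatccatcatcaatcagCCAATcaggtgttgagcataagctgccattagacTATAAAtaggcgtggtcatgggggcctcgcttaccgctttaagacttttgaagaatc
The Hist1h2bq and Hist1h2ap intervals, each of 167 bases, are reverse complements of each other with 0 mismatches. All 5 stretches hold CCAAT, between 2 matches (Hist1h2bq and Hist1h2ap) and 4 (Hist1h2bf and Hist1h2aa). ATTTGCAT, the octamer bound by the protein of Pou2f1, occurs once in the Hist1h2ah and Hist1h2bk interval, which has a summit, and once upstream of Hist1h2aa, which has none.

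Genes with their own upstream region are shown by an H1 and an H4 gene with a summit in all 4 lists and by one of each with a summit in no list. These are the 250 bases before the gene's start, 5′ to 3′ on the strand of the gene, with the motifs TATAAA and CCAAT and the H1 promoter element AAACACA in capitals.
Hist1h1e, minus strand, chr13:23714372-23714621: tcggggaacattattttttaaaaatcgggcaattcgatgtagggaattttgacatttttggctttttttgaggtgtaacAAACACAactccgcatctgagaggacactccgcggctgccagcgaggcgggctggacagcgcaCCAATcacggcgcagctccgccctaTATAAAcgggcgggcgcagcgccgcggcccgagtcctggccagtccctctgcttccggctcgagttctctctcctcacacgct
Hist1h1t, plus strand, chr13:23787430-23787679: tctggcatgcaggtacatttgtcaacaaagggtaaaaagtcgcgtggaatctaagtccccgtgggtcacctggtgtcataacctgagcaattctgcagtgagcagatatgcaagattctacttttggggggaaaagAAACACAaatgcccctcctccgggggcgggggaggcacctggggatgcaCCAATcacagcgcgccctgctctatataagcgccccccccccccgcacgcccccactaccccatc
Hist1h4h, plus strand, chr13:23622669-23622918: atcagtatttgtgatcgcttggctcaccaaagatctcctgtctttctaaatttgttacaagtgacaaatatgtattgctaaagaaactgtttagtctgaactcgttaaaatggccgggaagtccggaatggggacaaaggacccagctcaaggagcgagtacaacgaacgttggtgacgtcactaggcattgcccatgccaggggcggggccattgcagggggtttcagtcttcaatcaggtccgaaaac
Hist1h4k, minus strand, chr13:21842375-21842624: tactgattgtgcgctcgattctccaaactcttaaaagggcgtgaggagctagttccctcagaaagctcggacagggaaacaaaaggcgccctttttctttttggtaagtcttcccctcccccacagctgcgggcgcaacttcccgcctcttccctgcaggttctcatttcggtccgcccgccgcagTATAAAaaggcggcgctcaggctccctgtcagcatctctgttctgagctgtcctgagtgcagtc
Both H1 genes carry AAACACA and CCAAT, and TATAAA is present at Hist1h1e, which has a summit, but not at Hist1h1t. For H4 it is the other way, as the gene with no summit carries TATAAA while the gene with a summit carries none of the 3 motifs. Among these 4 genes the motifs did not follow whether a summit was called.

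Most starts of the cluster carried a called summit. A summit lay within 1 kb of a start for 48, 47, 43 and 46 of the 56 genes (85.7%, 83.9%, 76.8% and 82.1%). Among the 22312 other protein-coding genes the shares were 61.5%, 64.4%, 59.0% and 61.5%. All 4 lists held one at 43 genes, or 76.8% of the cluster, against 57.4% of the other protein-coding genes. At least 1 list held one at 48 genes, where the share among other protein-coding genes was 65.4%. The strongest summit lay at a median of 106, 88, 109 and 84.5 bp from the start, and 36, 38, 33 and 37 of these summits lay upstream. Neighbouring genes shared summits, so the genes with a summit rested on 37, 35, 32 and 36 different strongest summits. In bulk tissue, a region open in fewer cells and a region less open in every cell cannot be told apart.

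The median percentile over the 56 genes was 80.0, 79.6, 70.6 and 76.6, and that of the other protein-coding genes, counted in the same way, 68.3, 81.2, 56.6 and 70.0. The cluster thus ranked above them in 3 lists and below them in stop cassette replicate 2. The mean difference was 7.71 percentile points ± 6.88 (SD, n = 4 lists; two-sided exact sign-flip permutation test, p = 0.25, where 4 lists cannot go below 0.13). These medians hold the genes without a summit at 0 and so follow the share of genes with one. Among genes with a summit the cluster ranked below the others in 4 of 4 lists. The medians were 82.4, 83.4, 78.5 and 80.4 for the cluster and 90.05, 92.6, 85.5 and 88.6 for the others. The mean difference was -8.02 ± 0.911 (SD, n = 4 lists; exact sign-flip permutation test, p = 0.13). The starts of the cluster thus carried a summit more often than those of other genes, and, where one was called, one of lower median rank.

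**Figure D1:**
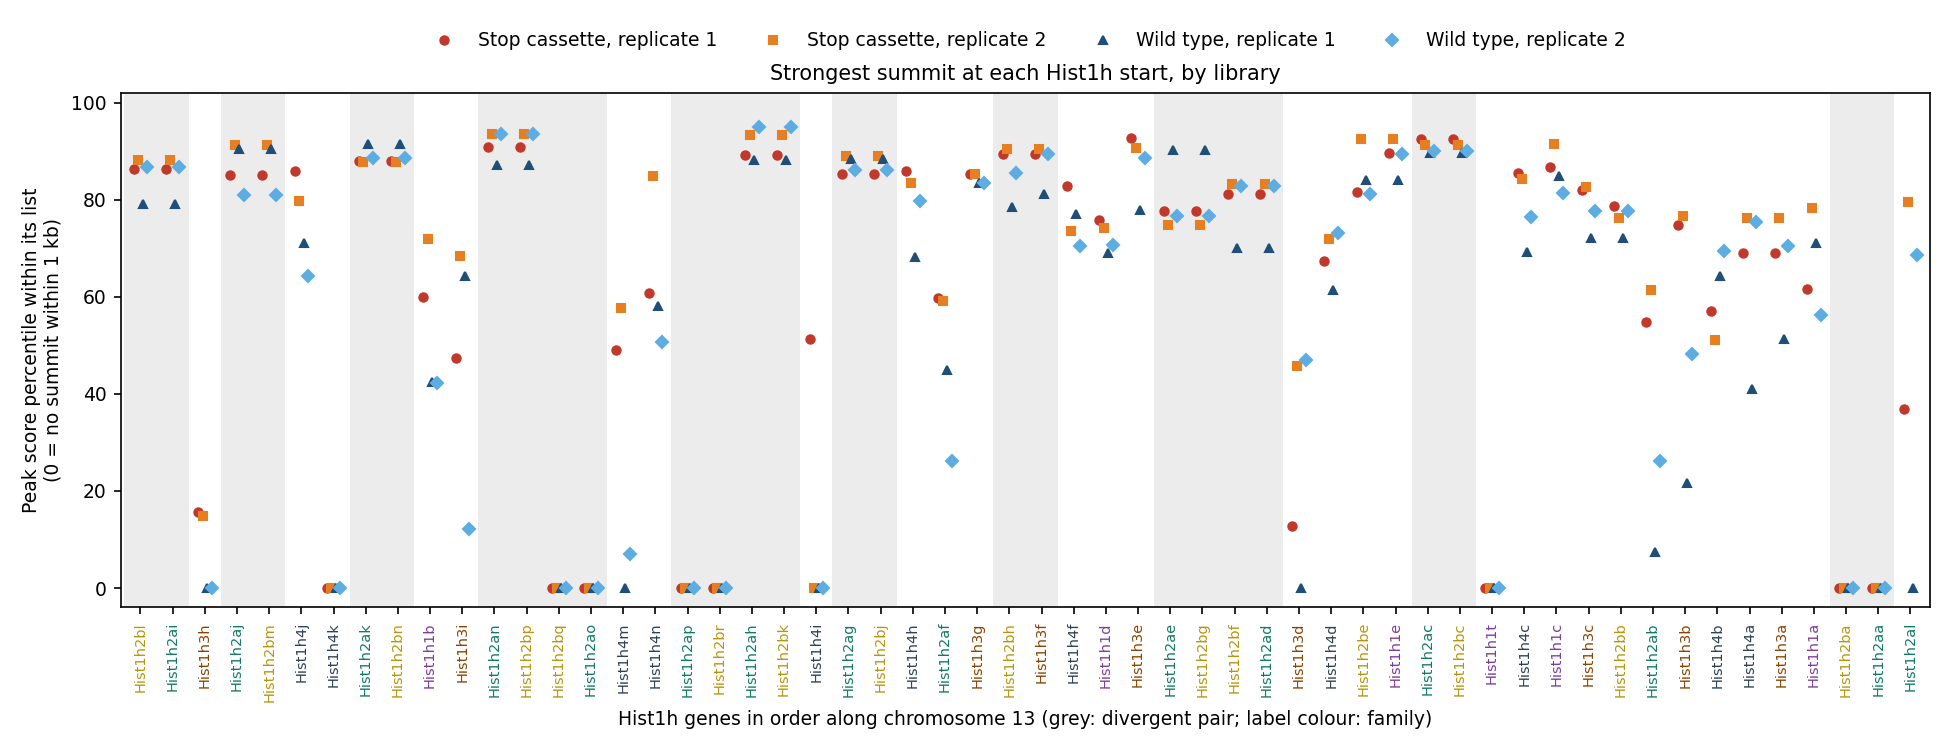
The vertical axis gives the percentile of the strongest summit within 1 kb of each start and the horizontal axis the 56 Hist1h genes in order along chromosome 13, with 1 symbol per library, grey bands for divergent pairs and label colours by histone family. Genes in grey bands lie above 70 or at 0 in all 4 libraries, whereas genes outside them spread over the whole range.

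The linker histone genes, whose products bind the DNA between nucleosomes, had a summit at 5 of 6 members in every list. Hist1h1e ranked highest, at 89.6, 92.5, 84.1 and 89.4, followed by Hist1h1c at 86.7, 91.5, 85 and 81.3. Some of these summits lay away from the promoter: those of Hist1h1e in stop cassette replicate 2 and wild-type replicate 1 lay 826 and 803 bp downstream of its start, past the end of the gene, and those of Hist1h1c in the wild-type lists 863 and 891 bp downstream. At the low end of the family, among genes held by all lists, Hist1h1b ranked lowest, at 60.0, 72.0, 42.5 and 42.2. Hist1h1a stood at 61.6, 78.3, 71.1 and 56.2. Hist1h1t, the linker histone of spermatocytes, had no summit in any list. Its nearest summits lay 1713, 1707, 1985 and 1799 bp away.

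H2A and H2B, the histones that join the nucleosome as a dimer, were held at 12, 12, 11 and 12 of 15 H2A genes and at 12 of 15 H2B genes in each list. The highest H2A and H2B genes were partners in the same pairs. Hist1h2ah and Hist1h2bk stood at 89.3, 93.3, 88.2 and 94.9, and Hist1h2an and Hist1h2bp at 90.9, 93.5, 87.1 and 93.6. The low H2A genes held by all lists were single genes without an H2B partner within 1 kb. Hist1h2ab stood at 54.8, 61.3, 7.52 and 26.2, and Hist1h2af at 59.7, 59.1, 44.9 and 26.2, so that both stop cassette values lay above both wild-type values at each. The same held for 25.9% of other protein-coding genes. When every list was reduced to its 51701 strongest peaks, Hist1h2af stood at 38.4, 14.7, 44.9 and 2.22, and this order was lost. The lowest H2B genes held by all lists ranked far higher, with Hist1h2bb at 78.8, 76.3, 72.2 and 77.6 and Hist1h2bf at 81.3, 83.2, 70.0 and 82.9. Hist1h2al, which lies alone at chr13:51298057-51298434, had a summit in 3 lists, at 36.8, 79.4 and 68.6, and none in wild-type replicate 1.

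The remaining H2A and H2B genes had no summit in any list. Hist1h2ba and Hist1h2aa encode the H2B and H2A of testis and form a pair of their own at chr13:24025637-24026720. Hist1h2bq with Hist1h2ao and Hist1h2ap with Hist1h2br are the pairs whose intervals are reverse complements. Of the 50-base words within 1 kb of these 4 starts, 0% occurred once in the genome, so that no read of that length can be placed uniquely there. The peak names record a filter on mapping quality of 30, and its part in the absence of these genes was not tested. For the testis pair that share was 92.9%, and for Hist1h1t 100%. Markers of male germ cells (Tnp1, Prm1, Ddx4 and Sycp3) had no summit either, except for Sycp3 in 1 list, at 3.08 in stop cassette replicate 1.

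H3 and H4 genes, for the inner tetramer, had lower family medians than H2A and H2B in every list. All 9 H3 genes had a summit in both stop cassette lists, and 7 and 8 of 9 had one in the wild-type lists. Hist1h3e ranked at 92.6, 90.7, 78.0 and 88.7 and Hist1h3f, partner of Hist1h2bh, at 89.3, 90.5, 81.2 and 89.4. At the low end of those held by all lists, Hist1h3i stood at 47.5, 68.4, 64.2 and 12.1 and Hist1h3b at 74.8, 76.7, 21.6 and 48.3. The values of Hist1h3i spread widely within a genotype, while at Hist1h3b both stop cassette values lay above both wild-type values, as at 25.9% of other protein-coding genes. Hist1h3d had a summit at 12.7, 45.8 and 46.9 and none in wild-type replicate 1, and Hist1h3h had weak ones at 15.7 and 14.8 in the stop cassette lists and none in the wild-type lists.

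H4 summits were held at 10, 9, 8 and 9 of 11 genes. The highest were Hist1h4h, at 86.0, 83.4, 68.2 and 79.7, and Hist1h4c, at 85.5, 84.4, 69.1 and 76.4. In stop cassette replicate 1 and wild-type replicate 1, the strongest summit of Hist1h4h lay 694 and 685 bp downstream of its start, past the end of the gene. The lowest held by all lists were Hist1h4b, at 57.1, 51.1, 64.3 and 69.4, and Hist1h4n, at 60.8, 84.9, 58.1 and 50.7. For Hist1h4n, the summit in stop cassette replicate 1 lay 627 bp downstream, also past the end of the gene. In the lists as deposited, Hist1h4b was the only single gene of the cluster at which both wild-type values lay above both stop cassette values. The same held for 2.61% of other protein-coding genes. Hist1h4i had a summit in stop cassette replicate 1 alone, at 51.3 and 4 bp from its start, and its nearest summits in the other lists lay 1240, 1686 and 1620 bp away. Hist1h4m stood at 49.1, 57.7, 0 and 7.06. Where it had a summit, the strongest lay 830, 509 and 587 bp downstream of its start, past the end of the gene. Hist1h4k had no summit, and the nearest lay 3014, 3437, 2994 and 3149 bp away, although 86.1% of its 50-base words are unique.

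Differences between the families stayed above the threshold of 0.05, which 4 lists cannot pass. Family medians were 68.7, 76.3, 70.1 and 63.5 for H1, 81.3, 83.2, 79.2 and 81.1 for H2A, and 85.1, 88.2, 84.1 and 82.9 for H2B. H3 stood at 74.8, 76.7, 64.2 and 70.5 and H4 at 67.5, 73.7, 61.4 and 69.4. H2B had the highest median in every list, with H2A next, and the order of the other families changed between lists. For the share of genes with a summit, each family was set against the other members within each list, in 5 comparisons. H3 exceeded the others by 11.3 points ± 8.31 and H2A differed from them by -5.20 points ± 2.02 (SD, n = 4 lists), each in the same direction in 4 of 4 lists (exact sign-flip permutation test, two-sided, p = 0.13, adjusted 0.3125). H1 differed by 1.33 ± 4.32, H2B by -2.93 ± 5.27 and H4 by -0.40 ± 4.96, with adjusted p between 0.625 and 0.875 in the same exact test. With lists of equal length H3 differed by -1.48, and at the stricter score threshold by -8.33. H2A differed by 0.285 in a window of 250 bp and by 2.55 among members with at least 50% unique 50-base words.

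**Figure D2:**
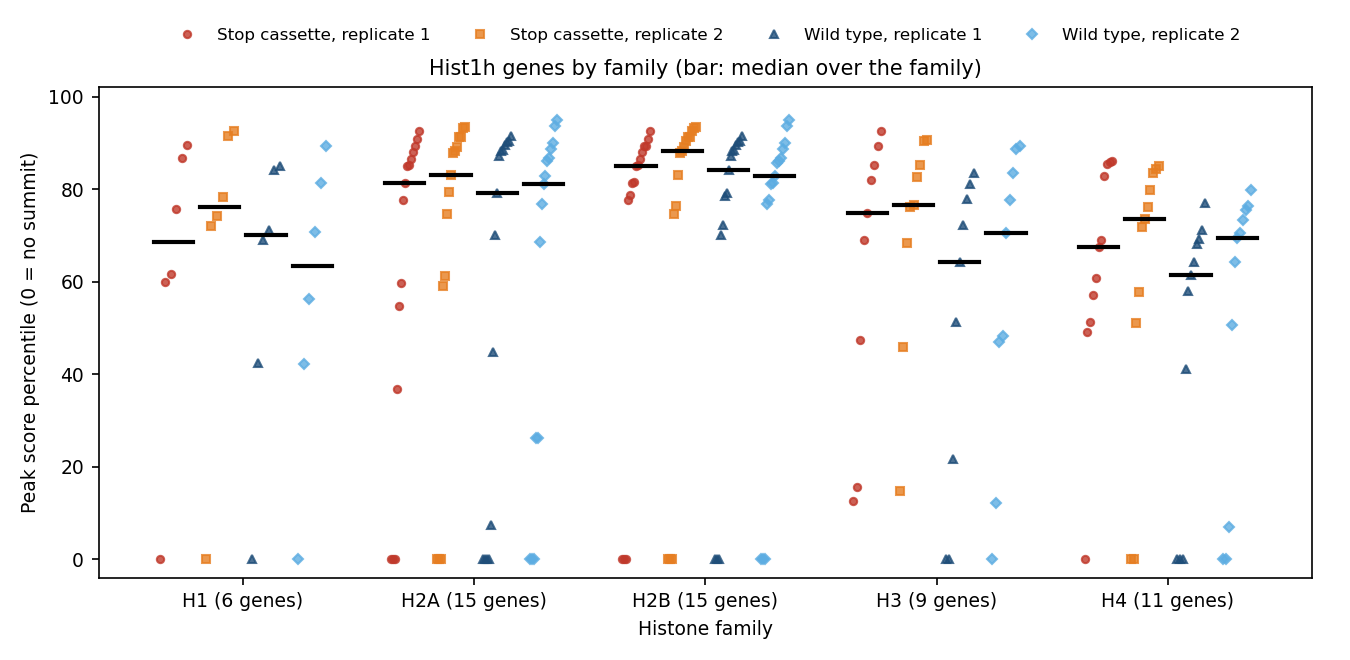
The vertical axis gives the percentile of the strongest summit and the horizontal axis the 5 histone families, with 1 point per gene and library and a bar at the family's median. The H2B genes lie between 70.0 and 94.9 apart from the 3 at 0 in each library, while H3 and H4 genes spread down to below 20.

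Genes of divergent pairs had a higher median rank than single genes in every list. A pair was counted where 2 Hist1h genes lie on opposite strands with their starts head to head within 1 kb, which gave 13 pairs, or 26 genes, and left 30 single genes. Of the pairs, 12 join an H2A with an H2B gene and 1 joins Hist1h2bh with Hist1h3f, whose starts are 693 bp apart. All H1 and H4 genes, and all H3 genes except Hist1h3f, are single. Divergent against single is thus nearly the same split as H2A and H2B against the other families. The parts of arrangement and family in these differences were not told apart. In every list 20 of the 26 divergent genes had a summit (76.9%), against 28, 27, 23 and 26 of the 30 single genes. The difference in share was -16.4, -13.1, 0.256 and -9.74 points, a mean of -9.74 ± 7.20 (SD, n = 4 lists; exact sign-flip permutation test, two-sided, p = 0.25). The 6 divergent genes without a summit are the 4 with no unique 50-base words and the 2 testis genes named above. Among the 50 members with at least 50% unique words, the difference was 4.3 points, with the divergent genes higher.

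Within the cluster, the divergent genes that had a summit did not reach down to low ranks. Their lowest percentile was 77.7, 74.7, 70.0 and 76.8, whereas single genes with a summit went down to 12.7, 14.8, 7.52 and 7.06. With the absent genes kept at 0, the median percentile was 85.3, 88.2, 87.1 and 85.9 for divergent genes and 68.2, 76.2, 62.8 and 69.0 for single genes. The difference was 17.1, 11.9, 24.3 and 16.9 points, a mean of 17.6 ± 5.10 (SD, n = 4 lists). Divergent genes ranked above single genes in 4 of 4 lists, which gave the smallest p that the exact sign-flip permutation test allows with 4 lists, 0.13. Both genes of a pair share their summit as a rule, so a pair is closer to 1 unit than to 2, and with each pair as 1 unit the difference was 17.6. Without the genes of low uniqueness it was 17.7. Among genes with a summit, the medians were 87.2, 89.8, 88.3 and 86.7 for divergent and 69.0, 76.3, 69.1 and 70.5 for single members.

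**Figure D3:**
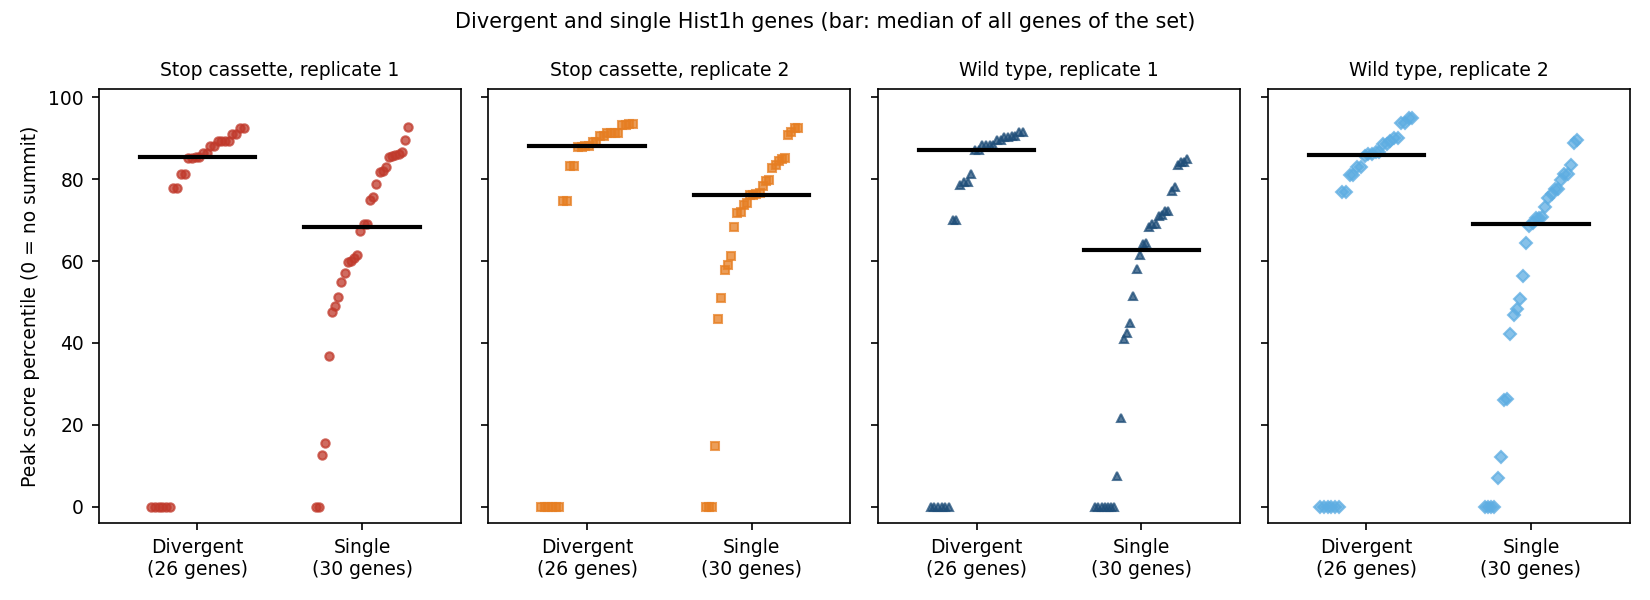
Each panel is 1 library, with the percentile of the strongest summit on the vertical axis, divergent and single Hist1h genes side by side, 1 point per gene and a bar at the median. The bars of the divergent genes lie between 85.3 and 88.2, and those of the single genes between 62.8 and 76.2.

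The same division among the other protein-coding genes gave larger differences over all genes and a smaller one among genes with a summit. There, 2630 genes lie head to head with another protein-coding gene within 1 kb, and their share with a summit exceeded that of the 19682 single genes by 37.8 points on average, against -9.74 in the cluster. Their median percentile exceeded it by 39.5 points, against 17.6. The cluster's differences minus these were -47.6 points of share and -21.9 points of percentile, below 0 in 4 of 4 lists each (exact sign-flip permutation test, p = 0.13, the smallest possible). Among genes with a summit the order turned: divergent minus single was 18.2, 13.5, 19.3 and 16.2 points in the cluster and 5.12, 3.87, 6.09 and 5.03 points elsewhere, a difference of 11.7 (exact sign-flip permutation test, p = 0.13). Divergent genes elsewhere then had medians of 93.7, 95.5, 90.1 and 92.5, above the divergent members in every list. The single Hist1h genes, with mean shares of 86.7%, lay above the other single genes at 57.2%, and the divergent ones at 76.9% lay below the other divergent genes at 95%. The divergent members without a summit are those with no unique 50-base words and the testis pair. Among members with at least 50% unique words, the cluster's own difference in share was 4.3 points.

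Ranked by their mean over the lists, the 10 pairs with a summit ran from 79.3 to 91.4. Hist1h2ah with Hist1h2bk led (178 bp between the starts), followed by Hist1h2an with Hist1h2bp at 91.3 (243 bp) and Hist1h2ac with Hist1h2bc at 90.9 (251 bp). Hist1h2bf with Hist1h2ad closed the range at 79.3 (185 bp), just under Hist1h2ae with Hist1h2bg at 79.8 (176 bp). The ranges of these last pairs overlapped, 70.0 to 83.2 and 74.7 to 90.2. The lowest value of the leading pair, 88.2, lay below the highest of the last but one. The Hist1h2bh and Hist1h3f pair stood at 87.6, within the range of the more closely spaced pairs.

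The strongest summit lay between the starts in 9, 8, 8 and 7 of the 10 pairs. In the exceptions it lay inside a gene body: always inside Hist1h2aj, whose annotated start overlaps that of Hist1h2bm by 87 bp, and in 2 lists each inside Hist1h2bp, just before its second annotated start, and inside Hist1h3f. Seen from the H2B gene, the summit lay upstream of the nearest start at 12 of 12 genes in every list, at medians of -140, -159, -163.5 and -145.5 bp. Within 250 bp of the start lay 79.2%, 83.0%, 81.4% and 82.6% of all members' strongest summits. Hist1h2be is a case apart, since its annotated start is 35138 bp from its coding start and its strongest summit there was that of Hist1h1e in 2 lists. At the coding start of Hist1h2be the percentiles were 80.4, 87.0, 77.5 and 69.9, against 81.6, 92.5, 84.1 and 81.3 at the annotated one.

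**Figure D4:**
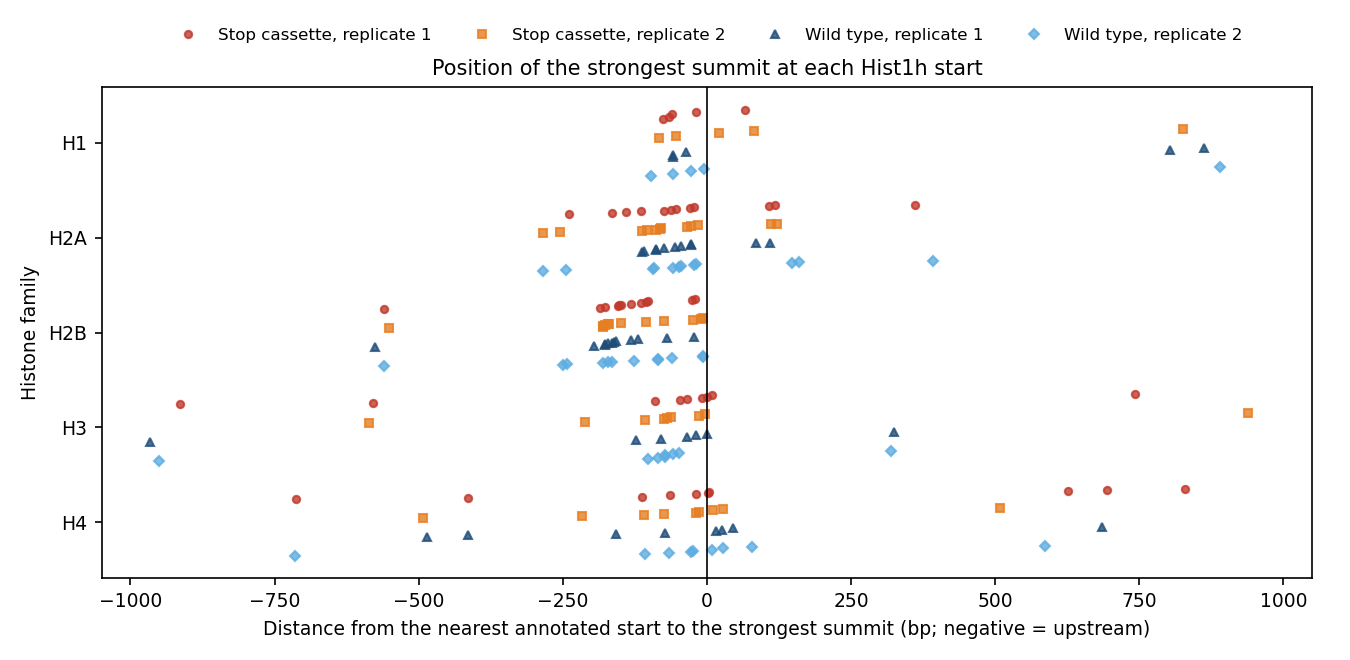
The horizontal axis gives the distance in bp from the nearest annotated start to the strongest summit, negative upstream, and the vertical axis the histone family, with 1 point per gene and library. All H2B points lie upstream of the start, and most points of the other families lie within 250 bp on either side.

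The members also share sequence with each other. Within 1 kb of a gene's start, a median of 75.2% of the 50-base words occurred once in the genome, against 100% for the other protein-coding genes of chromosome 13. Under 50% were unique at 6 members, the 4 absent H2A and H2B genes at 0%, Hist1h4m at 7.02% and Hist1h4n at 8.04%. The windows of Hist1h2bq and Hist1h2br shared 1952 of these words and those of Hist1h4m and Hist1h4n 1523. The 43 genes held by all lists had a median of 74.8% unique words (8.04% to 100%) and the 8 absent genes one of 43.0% (0% to 100%). Low uniqueness thus went with absence at 4 of the 8, and the other 4, Hist1h4k and the testis genes, had 86.1% to 100% unique words. Its part in the ranks of the remaining genes was not tested.

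**Figure D5:**
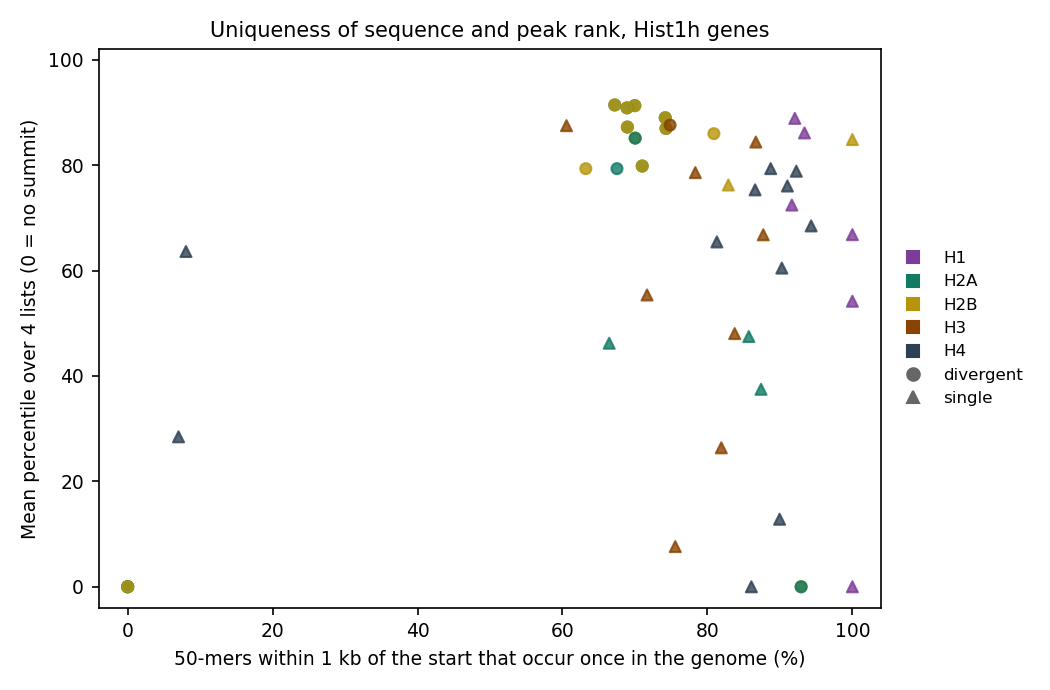
The horizontal axis gives the percentage of 50-base words within 1 kb of the start that occur once in the genome and the vertical axis the mean percentile over the 4 lists, with 1 point per gene, coloured by family, circles for divergent and triangles for single genes. The 4 genes at 0% unique words lie on top of each other at percentile 0, and genes at percentile 0 are also found at 86.1% to 100%.

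The upstream regions of the members were unlike those of other genes in their motifs. In the 250 bases before the start, on either strand, CCAAT occurred at 46 of 56 members (82.1%, against 34.9% of the other protein-coding genes). It was present at 6 of 6 H1, 14 of 15 H2A, 15 of 15 H2B and 8 of 9 H3 genes but at 3 of 11 H4 genes. TATAAA occurred at 26 members (46.4% against 12.3%), and the octamer ATTTGCAT at 5 H2A and 6 H2B genes and in no other family (19.6% against 1.58%). AAACACA was found at 9 members (16.1% against 5.64%), of which 5 are H1 genes. Of 2 motifs of the E2F type, TTTCGCGC occurred at 7 members (12.5% against 0.238%), all H2A or H2B, and TTTGGCGC at 0 (0.511% of the other genes). GC content there had a median of 43.8% against 54%. A match is a string in a window and no evidence of binding. The counts are of genes, and the genes of a pair share much of their windows.

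All transcripts of 50 members consist of a single exon (89.3%, against 12.5% of other protein-coding genes). The stem-loop of replication histone transcripts, searched by its consensus of 16 bases, with stems of 6 and a loop of 4 bases, on the coding strand within 300 bases after the stop codon, was found at 48 of 55 protein-coding members (87.3%), at a median of 35 bases after the stop, and at 15 of 22312 other genes (0.0672%). The 5 forms found are given as DNA with the loop in capitals, since the H4 genes differ from the other families in the stem.
Form of 30 genes of H1, H2A, H2B and H3: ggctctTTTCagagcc
Form of 8 genes of H1, H2B and H3: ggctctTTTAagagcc
Form of 7 genes, all H4: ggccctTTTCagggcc
Form of 2 genes, both H4: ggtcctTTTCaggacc
Form of 1 gene, Hist1h4i: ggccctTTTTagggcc
The testis genes, which have no summit, carry one of the first 2 forms, as do Hist1h2ao and Hist1h2ap. No match was found at their partners Hist1h2bq and Hist1h2br, also without a summit, nor at Hist1h2an and Hist1h2bp, which had one in every list. The presence of the stem-loop thus did not follow whether a summit was called.

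The study's own contrast, stop cassette against wild type, gave differences in the cluster that changed with list length and score threshold. The stop cassette lists held a summit at 47.5 ± 0.707 members and the wild-type lists at 44.5 ± 2.12 (SD, n = 2 each), a difference of 3 (exact permutation test, two-sided, p = 0.33, the smallest that 2 against 2 libraries allow). The median percentile was 79.8 ± 0.291 and 73.6 ± 4.24, a difference of 6.27 (exact permutation test, p = 0.33). The median of the other protein-coding genes differed by 11.4 in the same direction. At the stricter score threshold the cluster's differences were 7.5 members and 19.6 points, and those of the other protein-coding genes were not computed. The stop cassette lists were also the longer ones. When every list was reduced to its 51701 strongest peaks and the percentiles were recomputed, the medians were 69.5, 57.5, 70.6 and 69.0 and the difference was -6.27, beside -2.33 for the other protein-coding genes. Summits were then held at 46, 44, 43 and 44 members (background 57.7%, 59.7%, 59.0% and 59.4%) and in all lists at 41 (background 54.7%).

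Both stop cassette percentiles lay above both wild-type percentiles at 19 members (33.9%), where the same held for 25.9% of other protein-coding genes. The opposite held at 3 members (5.36%, background 2.61%). With lists of equal length the numbers were 3 (5.36%, background 12.0%) and 14 (25%, background 12.2%). Pairs that share a summit enter these counts with both genes, such as Hist1h2ak with Hist1h2bn. Hist1h4m, Hist1h2ab and Hist1h3b were higher in the stop cassette lists under both settings. At equal length Hist1h3b stood at 61.5, 51.4, 21.6 and 31.5, Hist1h2ab at 30.8, 19.4, 7.52 and 2.32, and Hist1h4m at 22.1, 11.8, 0 and 0. Hist1h2ak, Hist1h2bn and Hist1h4b were higher in the wild-type lists under both, Hist1h4b at 34.4, 0, 64.3 and 59.4 at equal length and the other 2 at 88.0, 87.8, 91.6 and 88.7 as deposited. The strongest summits of Hist1h4m lay past the end of the gene, so its values are not those of its promoter. Of Hist1h4m, 7.02% of the 50-base words are unique, and whether that bears on its difference was not tested.

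A summit in both lists of a genotype and neither of the other was found at Hist1h3h alone, in the stop cassette lists (background 1.03%), and at 0 members in the wild-type lists (background 0.0538%). The strongest summits of Hist1h3h lay at different sites, 914 and 107 bp upstream of its start in stop cassette replicates 1 and 2. Its nearest summits in the wild-type lists lay 1290 and 1235 bp away, outside the window. At equal length Hist1h3h had no summit in any list and Hist1h4m took its place (background 0.385%), with again 0 members in the wild-type lists alone (background 0.497%). No single gene was tested between the genotypes.

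Along the chromosome the members fall into 5 groups separated by over 100 kb. The group at chr13:21807632-21929399 holds 19 members, with a mean share with a summit of 69.7% ± 5.04 (SD, n = 4 lists) and a mean median percentile of 63.9. It contains the 4 genes at 0% unique words. The group at chr13:22126982-22135545 holds 5 members with 85% ± 10 and 87.2, and the largest, at chr13:23622919-23856283, holds 29 members with 95.7% ± 1.72 and 76.9. In the largest group only Hist1h1t was absent from every list. The testis pair and Hist1h2al make up the other groups. Of 9 other genes inside these spans, 5 had a summit in all lists (57.4% of other protein-coding genes did), and 4 of these had the percentiles of a neighbouring member in every list, so that they share its summit. The remaining one was Hfe, a regulator of iron uptake, at 15.2, 61.6, 16 and 77.3.

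Genes that act on the cluster carried a summit throughout. All 19 of a list of histone gene regulators and 3′ end processing factors had a summit in every list, where 57.4% of other protein-coding genes did. Their mean median percentile was 95.6 ± 0.980 (SD, n = 4 lists), against 76.7 ± 4.37 for the cluster and 69.0 ± 10.1 for other protein-coding genes. Counting only the other protein-coding genes with a summit, the medians were 90.05, 92.6, 85.5 and 88.6. Npat, the coactivator of histone genes in S phase, stood at 99.4, 99.97, 97.5 and 99.7, Casp8ap2, which acts in 3′ end processing, at 99.3, 98.2, 98.8 and 99.4, and Slbp at 97.6, 98, 96.5 and 99.2. All 11 histone variants made outside S phase were also held by every list (88.5 ± 5.96). Of 14 replication histone genes outside the cluster, 13 were held by all lists (79.4 ± 7.63), and Hist3h2ba had none in wild-type replicate 1.

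As a check of the labelled tissue, 5 of 8 limb mesenchyme markers had a summit at a start in all lists (57.4% of other protein-coding genes did), Twist1 among them at 71.6, 80.3, 73.1 and 77.1, and Tbx5 had none. Of markers of other cells, all lists held 0 of 5 for ectoderm, 0 of 4 for muscle precursors, 0 of 3 for liver, 1 of 4 for endothelium (Kdr), 2 of 4 for blood (Gata1 and Hbb-y) and 1 of 4 for neural cells (Olig2). Single lists held more of some: muscle precursor markers had a summit at 2, 4, 1 and 1 of 4 genes and ectoderm markers at 1, 3, 0 and 0 of 5, against 7, 7, 5 and 7 of 8 for mesenchyme. A summit at a start is not a measure of expression.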

How the data were processed

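The deposited files are 1 peak list for each of 4 ATAC-seq libraries, and the groups and replicate numbers were taken from the labels. Per the submitters' processing notes, Bowtie2 2.2.6, Picard and build mm9 were used; the peak caller is not given in the sources used here. As the authors deposited them, each row is a summit of 1 bp whose deposited score is read as −log10 of a q-value, with a lowest value of 1.30 to 1.31. Names in the deposited lists record a mapping quality of 30. The wild-type names share 1 replicate number with a sub-number, so these lists may be repeats. No label says that libraries came from separate embryos, so p-values measure only the spread between these libraries, which may be technical.

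Starts came from GENCODE M1 on the NCBIM37 genome, which is the build of the lists, and sequences were read from that genome. Percentiles, exact permutation tests and Benjamini-Hochberg adjustment used Python 3.11.15, numpy 2.4.6, pandas 2.3.3 and scipy 1.17.1. Divergent, family and genome-wide differences were formed within each list. Tested on simulated lists, the assignment recovered 200 of 200 planted genes among 22367 genes. The members, gene lists and named genes were chosen with earlier results of these data known. Named are the members held by 0 to 3 lists, the 2 highest and 2 lowest of each family among those held by all 4, the testis histones and the extreme pairs. Hist1h2be, Hist1h2ak, Hist1h2bn and the other pairs named were added after their values had been seen. Alternatives were other windows (250 bp, 500 bp and 2 kb), equal list length, a stricter score above 5.83, the gene's own start, protein-coding members only, a pair limit of 500 bp, pairs as units, libraries left out and replicate numbers as pairs. The alternatives of uniqueness, without testis histones, coding starts, genes with a summit only and crossed numbers were chosen after seeing the data.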

Additional observations from a re-analysis of the deposited data

How the results depend on the processing

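With all 4 libraries, 95 differences under other settings kept their direction, 14 reversed and 2 came to 0. That none passed 0.05 was fixed by the number of libraries. The 95 include differences that a setting left unchanged. Replicate numbers as a block alter only the test, and most differences were identical with each gene's own start. With lists of equal length, the genotype difference of the median percentile was -6.27, and the share of genes with a summit differed from the other members by 1.34 points for H2B and by -1.48 for H3. At the stricter score the divergent minus single share was 6.09 points, with 8.66 for H2B, -8.33 for H3 and 1.67 for H4. In a window of 250 bp, H2A differed by 0.285 and H2B by 2.56. Among members with at least 50% unique words, the divergent minus single share was 4.3, with -5.87 for H1, 2.55 for H2A and 5.15 for H2B. H4 differed by 0 with protein-coding members only and with coding starts. The cause was not tested, apart from the shorter lists at equal length and the smaller set of genes in the last settings, which follow from their construction. The median difference between the cluster and other protein-coding genes was 7.71, -8.02 over genes with a summit only, 16 in a window of 250 bp, 15.9 at the stricter score, 16.7 with each gene's own start alone and 75.4 with coding starts. The divergent minus single median was 36.2 at the stricter score and 11.2 in a window of 2 kb, against 17.6. The genotype difference in members with a summit was 7.5 and that of the median 19.6 at the stricter score. All lists held a summit at 35 members at the stricter score, at 40 in a window of 250 bp and at 49 in one of 2 kb. The matching shares and genotype differences of other protein-coding genes were not computed under these settings. Whether the cluster differs from them there was therefore not tested.

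With 1 library left out at a time, the genotype difference ran from 1.5 to 4.5 members and from 3.27 to 9.26 points of the median, divergent minus single from -13.1 to -7.52 points of share and from 15.3 to 19.4 of the median, the cluster minus other genes from 5.61 to 10.8, and the members held by all remaining lists from 43 to 46. The family differences ran from -0.667 to 2.67 for H1, -5.96 to -4.34 for H2A, -5.37 to -1.30 for H2B, 8.75 to 14.7 for H3 and -2.69 to 1.14 for H4. H1 changed sign without wild-type replicate 1, at -0.667, and H4 without that library, at 1.14, and without stop cassette replicate 2, at 0.337. Taking replicate numbers as a block gave the same differences, 3 and 6.27, with an exact sign-flip p of 0.5, the smallest for 2 pairs, as did the crossed numbers. Deviations of same-numbered libraries correlated at 0.199 over 12818 protein-coding genes and at -0.274 over 43 members, so the numbers are not read as pairs.

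Depth is unknown, list length differed between genotypes, and no comparison reached 0.05. Percentiles are ranks within a list and do not measure accessibility on a common scale.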
